A study of Rattus norvegicus with 33 samples.

Results

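The genes of axon guidance ligands and receptors were followed in dorsal root ganglia (DRG) of rats after spine surgery. Members were all array probes whose platform gene symbol begins with Sema or Plxn, or names a neuropilin (Nrp), an ephrin (Efna, Efnb), an Eph receptor (Epha, Ephb), a netrin (Ntn), a Slit, a Robo, an Unc5 receptor or Dcc. The rule found 56 probes for 53 genes among the 22523 probes of the array, which carry symbols of 13337 genes. These were 18 probes for 17 semaphorins, 6 for plexins and neuropilins, 7 for ephrins, 9 for Eph receptors, 10 probes for 8 genes of the netrins, Dcc and Unc5, 3 for Slits and 3 for Robos.

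RNA was measured on 33 Illumina Rat Ref-12 arrays in 9 groups. Sasco/Sprague-Dawley rats aged 13 weeks (females, per the study's methods) had lumbar surgery with a collagen sponge soaked in a recombinant form of the human growth factor bone morphogenetic protein-2 (rhBMP-2/ACS), the same surgery with a sponge that held vehicle only (vehicle/ACS), or surgery alone (no sponge). Each treatment was sampled at 1, 3 and 7 days post surgery (dps), with 4 arrays per group at 1 and 7 dps and 3 at 3 dps. All groups had surgery, so that no group stands for unoperated rats, and the study sent only its RNA samples of best quality and yield for hybridisation. The sponge lay on the transverse processes of lumbar vertebrae on one side. Arrays of rhBMP-2/ACS and vehicle/ACS were described in the study as DRG of the operated side, and for no sponge arrays the side was not given in the sources used here. The rats behind the no sponge arrays of 7 dps are not described there either, so that these arrays are grouped by their labels alone. P-values measure the spread between arrays.

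Axon guidance molecules steer growing axons by attraction or repulsion. Semaphorins signal through plexins, with neuropilins as co-receptors for most secreted semaphorins. Ephrins are membrane-bound ligands of the Eph receptor tyrosine kinases, and signals pass into both the ligand-bearing and the receptor-bearing cell. Netrins act through Dcc and Unc5 receptors, and Slits through Robos. In sensory ganglia these systems guide axons to skin and spinal cord during development, and in adult nerve they are also made by glia, fibroblasts, vessels and leukocytes.

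Values are log2 intensities after background correction and quantile normalization, and differences are on the same log2 scale. Because probes differ in brightness, the level of a probe was compared between groups and not with that of another probe. A probe counted as detected on an array at a detection p-value under 0.05, and it was tested if some group had it detected on 75% or more of its arrays. A called probe is one with a Benjamini-Hochberg adjusted p under 0.05 in limma, adjusted over all 12029 probes tested. In bulk tissue, fewer cells of a type and less RNA per cell cannot be told apart.

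Of the 56 members, 35 were tested, each for a different gene. Tested members were 12 semaphorins, 5 plexins and neuropilins, 4 ephrins, 7 Eph receptors, 3 of the netrins and Unc5 receptors, all 3 Slits, and Robo2 of the Robos. In roles these were 20 ligands and 15 receptors. In total 21 members were detected on all 33 arrays and 12 on no array. The 21 probes not tested were detected on 0 to 5 arrays, with a median of 0. They were those of Sema3a, Sema3d, Sema3e, Sema3g, Sema5b, Nrp2, Efna2, Efna4, Efnb2, Epha7, Epha10, Dcc, Ntn1, Ntn3, Unc5a, Robo3 and Robo4, both probes of Unc5d, and 1 of the probes of Sema5a and of Ntn5. The probes of Sema5a disagreed, since ILMN_1355103 was detected on 33 arrays and ILMN_1530319 on 0. Likewise, Ntn5 was detected on 11 arrays by ILMN_2040726 and on 0 by ILMN_1349397.

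The arrays differed in brightness between days. Median raw intensities spanned 66.7 to 97.5 on the arrays of 1 dps, 111.3 to 143.5 on those of 3 dps, and 89.1 to 103.6 on those of 7 dps. The number of members detected per array spanned 25 to 29 on day 1, 26 to 31 on day 3, and 29 to 37 on day 7. Over all probes of the array it spanned 10142 to 10854, 10148 to 11189 and 10694 to 11674 on these days, so that detection was highest at 7 dps there too. The chip that each array lay on is not given in the sources used here, so that time and hybridisation cannot be told apart. The sensory neuron markers Tac1, Trpv1, Scn10a, Prph and Isl1 were detected on all 33 arrays, whereas the probe of Calca was detected on 0.

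**Figure D1:**
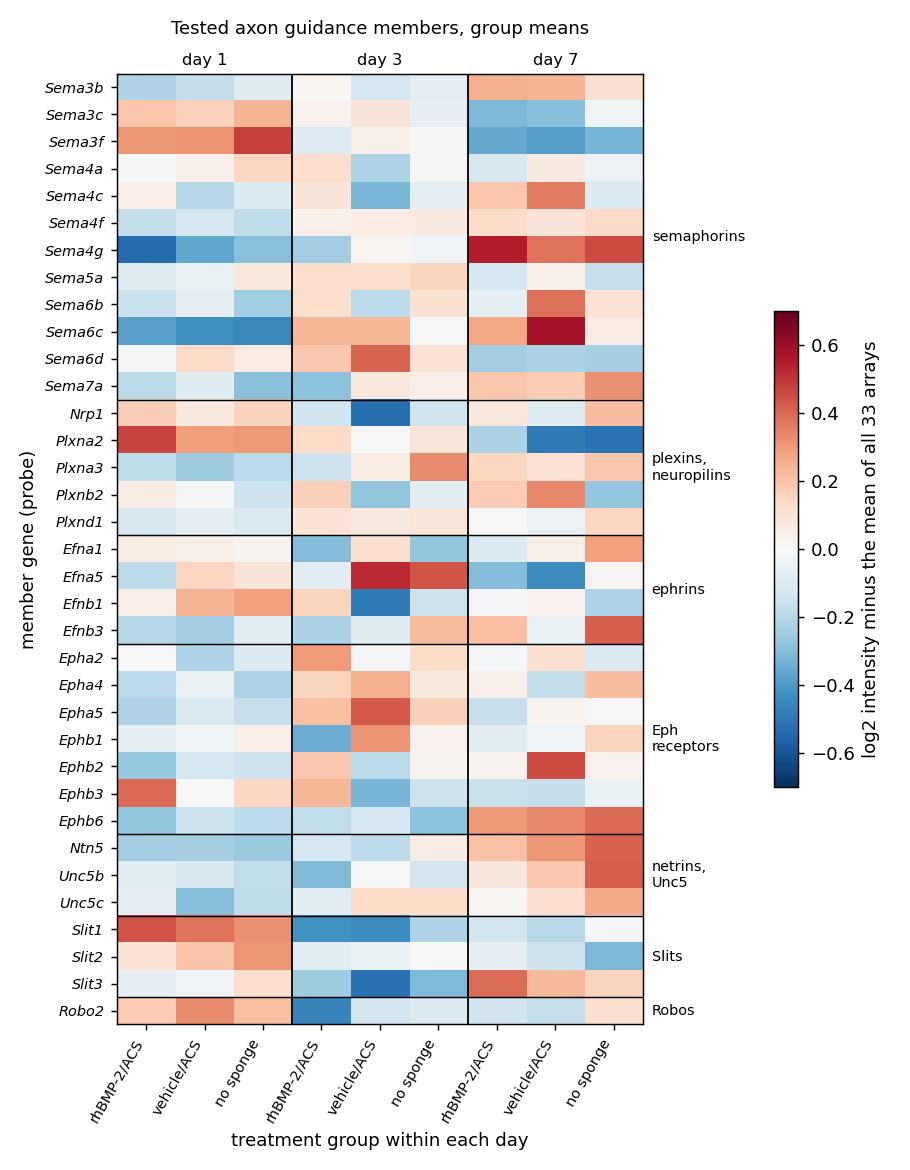
Group means of the 35 tested members, one row per member in family order and one column per group, as log2 intensity minus the mean of all 33 arrays (colour bar). Red marks groups above and blue groups below the member's mean, and Sema3f, Plxna2 and Slit1 are above it in all groups of 1 dps.

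To see whether rhBMP-2 in the sponge altered these genes, rhBMP-2/ACS was compared with vehicle/ACS at each day. At 3 dps, 6 of the 35 tested members were called (17.1%), against 10.5% of all tested probes. The 6 were 2 higher members, Efnb1 and Ephb3, and 4 lower members, Ephb1, Efna5, Efna1 and Sema7a. Of all tested probes 5.98% were called higher and 4.56% lower. The median difference was -0.02 over the members and -0.03 over all tested probes. All 6 lay outside the range of the other group's arrays, as did 13 of the 35 members in all, against 22.8% of all tested probes.

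Efnb1, the gene of the transmembrane ligand ephrin-B1, had log2 intensities of 8.02, 7.98 and 8.39 in rhBMP-2/ACS DRG, against 7.52, 7.46 and 7.47 in vehicle/ACS DRG at 3 dps. It was 1.57-fold higher with rhBMP-2 (log2 difference 0.65 ± 0.120 SE, adjusted p = 0.00105 in limma). The 3 no sponge arrays, at 7.87, 7.87 and 7.74, lay between these groups. Neither rhBMP-2/ACS nor vehicle/ACS was called against no sponge for Efnb1 at 3 dps (log2 differences 0.31 and -0.34, adjusted p = 0.110 and 0.196). Thus the vehicle/ACS arrays were the lowest of the 3 groups, and the called difference was that between the groups with a sponge.

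Ephb3, the gene of a receptor for B-class ephrins, was near the detection limit. Its values were 5.19, 5.27 and 5.04 in rhBMP-2/ACS DRG, 2 of the 3 detected, against 4.46, 4.70 and 4.67 in vehicle/ACS DRG, with 0 of 3 detected. Since vehicle/ACS gave only a bound, rhBMP-2/ACS was at least 1.1-fold higher (measured log2 difference 0.56 ± 0.124 SE, adjusted p = 0.00441 in limma). Such bounds compare the mean of the detected group with, on each array of the other group, the higher of the probe's own value and the lowest detected probe. No sponge DRG had 4.78, 4.68 and 4.90, with 0 of 3 detected. All 3 rhBMP-2/ACS arrays lay above all 6 other arrays of that day.

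Ephb1, another receptor for B-class ephrins, was lower. It had 7.70, 7.78 and 6.95 in rhBMP-2/ACS DRG, against 7.95, 8.19 and 8.28 in vehicle/ACS DRG and 8.15, 7.59 and 7.82 in no sponge DRG. The log2 difference from vehicle/ACS was -0.66 ± 0.167 (SE, adjusted p = 0.0107 in limma), which is 1.59-fold lower. The arrays did not overlap, but replicate 3 of rhBMP-2/ACS stood below the other 2. Without it the difference was -0.40 and the call was lost (adjusted p = 0.181).

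Efna5, the gene of the membrane-anchored ligand ephrin-A5, had 5.37, 5.67 and 5.35 in rhBMP-2/ACS DRG, against 6.04, 6.14 and 6.01 in vehicle/ACS DRG. The log2 difference was -0.60 ± 0.172 (SE, adjusted p = 0.0240 in limma). No sponge arrays spread wider, at 6.24, 5.55 and 6.15, and 2 of them lay with vehicle/ACS. The call was lost without vehicle/ACS replicate 2 (adjusted p = 0.0900) and without rhBMP-2/ACS replicates 1 or 3 (adjusted p = 0.0555 and 0.142).

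Efna1, the gene of the related ligand ephrin-A1, had 4.78, 5.0 and 5.08 in rhBMP-2/ACS DRG, against 5.20, 5.47 and 5.44 in vehicle/ACS DRG (log2 difference -0.42 ± 0.125 SE, adjusted p = 0.0302 in limma). It was detected on 1 of 3 rhBMP-2/ACS arrays and 3 of 3 vehicle/ACS arrays. No sponge arrays had 5.04, 5.10 and 4.82, detected on 0 of 3, and thus lay with rhBMP-2/ACS. The call was lost without vehicle/ACS replicates 2 or 3 and without rhBMP-2/ACS replicates 1 or 3, at adjusted p of 0.125, 0.0848, 0.108 and 0.0635 in that order.

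Sema7a, a membrane-anchored semaphorin that binds integrins and plexin C, was bright. It had 8.98, 8.63 and 8.67 in rhBMP-2/ACS DRG, against 9.06, 9.20 and 9.10 in vehicle/ACS DRG and 8.95, 9.23 and 9.10 in no sponge DRG. The difference from vehicle/ACS was the smallest of the called members, -0.36 ± 0.119 (SE, adjusted p = 0.0467 in limma). Leaving out vehicle/ACS replicates 1, 2 or 3 or rhBMP-2/ACS replicates 2 or 3 ended the call, with adjusted p of 0.0634, 0.161, 0.0798, 0.156 and 0.224 in that order.

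The size of a difference near the detection limit depended on the background correction. For Ephb3 it was 0.56 as given, 2.64 with the authors' values and 0.26 with an offset of 50, and for Efna1 -0.42, -0.94 and -0.21, each of these called. For Efna5 an offset of 50 gave -0.37, which was called, and the authors' values gave -0.82, which was not (adjusted p = 0.150).

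Efnb1 and Ephb3 kept their calls when any of these 6 arrays was left out, with adjusted p of at most 0.0261 and 0.0286. Without rhBMP-2/ACS replicate 3 only these 2 of the 6 were called. When each array was shifted to a common median in place of quantile normalization, the split at 3 dps was 2 higher and 0 lower members, and the median of all tested probes moved to 0.07. Fitted to rhBMP-2/ACS and vehicle/ACS arrays alone, 0 of the 6 were called.

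**Figure D2:**
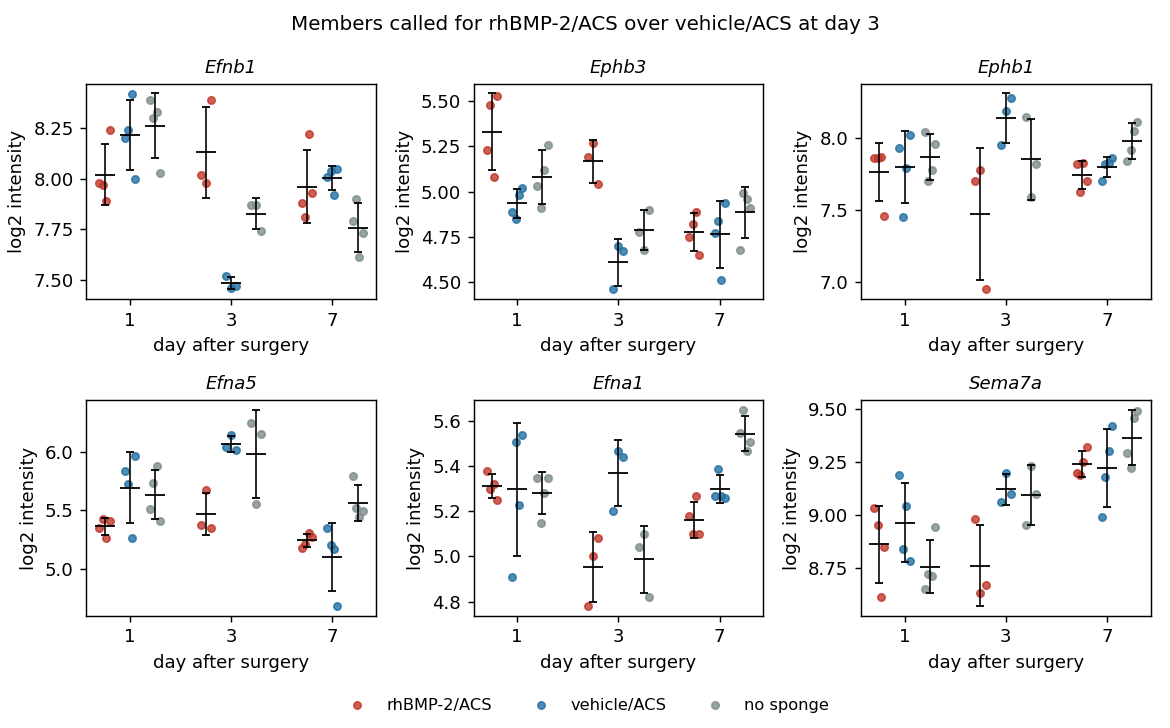
Log2 intensity (y axes) of the 6 members called at 3 dps by day after surgery (x axes). Each point is 1 array in rhBMP-2/ACS (red), vehicle/ACS (blue) or no sponge (grey), black marks are group means and bars are SD. At day 3 the red points of Efnb1 and Ephb3 lie above all blue points, and those of the other 4 members lie below them.

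Members of the same families that missed the threshold at 3 dps included the semaphorin receptor Plxnb2 (log2 difference 0.44, adjusted p = 0.0654), Sema4c (0.41, adjusted p = 0.0905), the co-receptor Nrp1 (0.39, adjusted p = 0.103) and the Slit receptor Robo2 (-0.34, adjusted p = 0.158). Sema6b, a transmembrane semaphorin, had 5.05, 5.05 and 5.02 in rhBMP-2/ACS DRG, 2 of 3 detected, against 4.70, 4.75 and 4.74 in vehicle/ACS DRG, 0 of 3 detected (adjusted p = 0.129 in limma). Its groups did not overlap, but the call threshold was not reached. In all, 13 of the 35 members had an unadjusted p under 0.05 at 3 dps, as did 26% of all tested probes.

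Markers of other cell types were called in the same comparison. At 3 dps, 7 of 8 macrophage markers and 7 of 8 fibroblast markers were called higher in rhBMP-2/ACS and 0 lower, with median log2 differences of 1.5 and 0.92. The mean log2 intensity over the macrophage markers ranged from 7.60 to 8.33 in rhBMP-2/ACS arrays and from 6.26 to 6.93 in vehicle/ACS arrays. Over the fibroblast markers it ranged from 9.64 to 10.77 in rhBMP-2/ACS and from 8.51 to 9.64 in vehicle/ACS. Of 7 endothelial markers 4 were called higher and 0 lower, with a mean of 7.09 to 7.66 in rhBMP-2/ACS and 6.54 to 6.85 in vehicle/ACS. Of 5 satellite glia and Schwann cell markers 0 were called in either direction. Of 11 sensory neuron markers 0 were called higher and 3 lower, with a neuron mean of 11.23 to 11.39 in rhBMP-2/ACS and 11.39 to 11.45 in vehicle/ACS. Their part in the differences of Efnb1, Ephb3, Ephb1, Efna5, Efna1 and Sema7a was not tested.

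Promoter windows of the 4 members with the largest called differences at 3 dps are shown, since these genes were called in the comparison that varied a BMP ligand. Each window holds 250 bases before and 50 after the annotated gene start in RefSeq's GRCr8 assembly, read 5′ to 3′ on the strand of the gene. Capitals mark matches to motifs bound by Smads, the transcription factors downstream of BMP receptors: GGCGCC, which is the same on both strands, and CAGAC, searched on both strands and so also read as GTCTG. The motifs do not share bases in these windows.
Efnb1 (chrX:68297279-68297578, plus strand): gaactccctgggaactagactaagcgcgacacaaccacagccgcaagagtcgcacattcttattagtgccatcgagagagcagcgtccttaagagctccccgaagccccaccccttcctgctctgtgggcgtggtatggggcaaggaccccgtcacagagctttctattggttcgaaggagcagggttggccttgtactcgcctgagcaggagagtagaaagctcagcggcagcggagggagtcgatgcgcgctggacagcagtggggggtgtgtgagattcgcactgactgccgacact
Ephb3 (chr11:93363726-93364025, minus strand): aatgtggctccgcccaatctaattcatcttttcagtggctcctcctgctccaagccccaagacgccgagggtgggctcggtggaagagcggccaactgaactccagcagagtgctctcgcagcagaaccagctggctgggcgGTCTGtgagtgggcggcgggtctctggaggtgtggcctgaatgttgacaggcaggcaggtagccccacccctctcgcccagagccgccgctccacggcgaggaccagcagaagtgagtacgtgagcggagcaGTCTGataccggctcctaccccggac
Ephb1 (chr8:111823710-111824009, minus strand): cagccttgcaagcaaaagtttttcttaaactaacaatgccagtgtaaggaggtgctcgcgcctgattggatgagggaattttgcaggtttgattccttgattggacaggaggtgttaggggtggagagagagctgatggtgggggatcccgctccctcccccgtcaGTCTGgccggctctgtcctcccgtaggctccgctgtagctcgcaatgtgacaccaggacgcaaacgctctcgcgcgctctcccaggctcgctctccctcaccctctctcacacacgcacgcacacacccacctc
Efna5 (chr9:110042138-110042437, minus strand): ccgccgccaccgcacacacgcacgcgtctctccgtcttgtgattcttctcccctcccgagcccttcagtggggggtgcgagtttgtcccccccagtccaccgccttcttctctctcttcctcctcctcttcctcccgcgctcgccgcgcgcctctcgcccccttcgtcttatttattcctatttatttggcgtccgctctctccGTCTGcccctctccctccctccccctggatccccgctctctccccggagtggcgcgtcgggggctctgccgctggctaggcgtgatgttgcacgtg

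The window of Efnb1 held 0 matches to CAGAC, that of Ephb3 held 2, and those of Ephb1 and Efna5 held 1 each. None of the 4 held GGCGCC. Efna1 had 1 match to each motif, and Sema7a 1 match to CAGAC. For comparison, 50.1% of 33469 rat promoter windows of the same length held CAGAC and 11% held GGCGCC. Of the 53 member genes, 41 had a window, of which 58.5% held CAGAC and 29.3% held GGCGCC. A match is a description of the letters and says nothing of binding. In DRG of its rats the study found no change of the BMP target genes Id1, Smad6 or Smad7 with rhBMP-2/ACS. It also reported no difference in staining for phosphorylated Smads between DRG of rhBMP-2/ACS and vehicle/ACS rats.

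At 1 dps, 0 members and 0% of all tested probes were called between rhBMP-2/ACS and vehicle/ACS, with 3 members at an unadjusted p under 0.05 (3.79% of all tested probes) and 2 without overlap between groups (2.78%). The lowest p was that of Ephb3, with 5.23, 5.48, 5.08 and 5.53 in rhBMP-2/ACS DRG, 3 of 4 detected, against 4.89, 4.85, 4.98 and 5.02 in vehicle/ACS DRG, 0 of 4 detected. The arrays of these groups did not overlap and the bound was at least 1.17-fold, but the adjusted p was 0.999. Ephb3 met the detection rule only in this rhBMP-2/ACS group. Its lack of overlap and its bound are thus not independent of that rule. No sponge DRG of 1 dps had 5.03, 4.91, 5.12 and 5.26, 2 of 4 detected, and overlapped rhBMP-2/ACS. The next lowest p was that of the netrin receptor Unc5c (log2 difference 0.24 ± 0.0996 SE, adjusted p = 0.999).

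At 7 dps, again 0 members and 0% of all tested probes were called between rhBMP-2/ACS and vehicle/ACS, and 4 members had an unadjusted p under 0.05 (6.46% of all tested probes), 1 member being without overlap (3.35%). Sema6b had 4.92, 4.63, 4.84 and 5.02 in rhBMP-2/ACS DRG, 1 of 4 detected, against 5.25, 5.48, 5.27 and 5.21 in vehicle/ACS DRG, 4 of 4 detected. The groups did not overlap (log2 difference -0.45 ± 0.114 SE, adjusted p = 0.305 in limma). Ephb2, a receptor for B-class ephrins, had 4.77, 4.74, 5.07 and 4.93 in rhBMP-2/ACS DRG, against 5.21, 5.53, 5.57 and 4.93 in vehicle/ACS DRG (log2 difference -0.43, adjusted p = 0.540). Both probes lie near the detection limit, and Ephb2 was tested only through this vehicle/ACS group.

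The change of the rhBMP-2/ACS effect between days was tested directly. From 1 to 3 dps the effect over vehicle/ACS rose for 1 member, Efnb1 (log2 change of the effect 0.84 ± 0.159 SE, adjusted p = 0.0121 in limma), with 1.16% of all tested probes called, 0.948% higher and 0.216% lower. An unadjusted p under 0.05 was reached by 7 members (15.6% of all tested probes). For Efnb1 the effect was -0.19 at 1 dps and 0.65 at 3 dps. From 3 to 7 dps the effect changed for 5 members, 1 higher and 4 lower, with 6.9% of all tested probes called, 2.34% higher and 4.56% lower. It was lower at 7 dps for Ephb2 (-0.80, adjusted p = 0.0172), Sema6b (-0.76, adjusted p = 0.00834), Efnb1 (-0.69, adjusted p = 0.00834) and Ephb3 (-0.54, adjusted p = 0.0414), and higher for Efna5 (0.74, adjusted p = 0.0461). Ephb2 met the detection rule only in vehicle/ACS at 7 dps, a group of this comparison, so that its call is no independent support. Of these 5 members, Ephb2, Sema6b and Ephb3 were detected on 0 of 3 vehicle/ACS arrays at 3 dps, and Ephb3 on 0 of 4 rhBMP-2/ACS arrays at 7 dps, so that their measured changes give no size. With the authors' values they were -2.91, -2.66 and -2.29, and were not called (adjusted p = 0.0862, 0.116 and 0.116). Markers of other cells moved in the same test, with 7 of 8 macrophage markers (median -2.07), 6 of 8 fibroblast markers (median -1.2) and 3 of 7 endothelial markers called lower and 0 higher, and 2 of 11 sensory neuron markers called higher and 0 lower. Of 6 skeletal muscle markers 1 was called higher and 0 lower. Between 1 and 3 dps, 5 macrophage, 1 fibroblast and 3 endothelial markers were called higher and 0 lower. Their part in these changes was not tested. At 7 dps the effects on the members called at 3 dps were between -0.13 for Efna1 and 0.14 for Efna5. Thus of the 6 members called at 3 dps, the change of the effect to 7 dps was called for Efnb1, Ephb3 and Efna5 and not for Ephb1, Efna1 and Sema7a. The calls of Ephb3 and Efna5 were weak, since leaving out 1 array kept them for 3 and 2 of 14 arrays, with adjusted p of up to 0.111 and 0.151.

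These calls differed in how far single arrays decided them. The change of Efnb1 between 1 and 3 dps was lost without vehicle/ACS replicate 2 of 3 dps (adjusted p = 0.0550) and without rhBMP-2/ACS replicate 3 of 3 dps (adjusted p = 0.0891). Without that rhBMP-2/ACS array, 1 member in place of 5 was called between 3 and 7 dps, namely Sema6b. Without vehicle/ACS replicate 1 of 3 dps 2 were called (Sema6b and Efnb1), and 3 (Sema6b, Efnb1 and Ephb2) were called without replicates 1, 2 or 4 of rhBMP-2/ACS or replicates 2 or 4 of vehicle/ACS at 7 dps.

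To see what the vehicle-soaked sponge did, vehicle/ACS was compared with no sponge. No sponge rats received neither sponge nor vehicle, so that the parts of sponge and vehicle cannot be told apart. At 1 dps 0 members were called (0% of all tested probes), with 0 members at an unadjusted p under 0.05 (3.43%) and 0 without overlap (2.61%). At 3 dps 0 members were called (0.341% of all tested probes), with 6 members at an unadjusted p under 0.05 (13.7%) and 9 without overlap (14.9%). The lowest p at 3 dps was that of Efna1, detected on 3 of 3 vehicle/ACS arrays (5.20, 5.47 and 5.44) and 0 of 3 no sponge arrays (5.04, 5.10 and 4.82), at least 1.2-fold higher with an adjusted p of 0.163. Sema6b at 3 dps had 4.70, 4.75 and 4.74 in vehicle/ACS DRG, 0 of 3 detected, against 5.14, 5.02 and 4.90 in no sponge DRG, 1 of 3 detected. The arrays did not overlap but the difference was not called (adjusted p = 0.315). At 7 dps, 5 of 35 members were called (14.3%), against 10.2% of all tested probes, 4 higher and 1 lower. The 4 higher include Ephb2, which met the detection rule only in this vehicle/ACS group. Of all tested probes 6.22% were called higher and 3.96% lower. An unadjusted p under 0.05 was reached by 12 members (24.6% of all tested probes), and 6 did not overlap (17.1%). The median difference was -0.07 over the members and -0.04 over all tested probes.

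Plxnb2, a receptor for class 4 semaphorins, showed the largest of these differences at 7 dps. It had 7.79, 7.78, 7.71 and 7.66 in vehicle/ACS DRG, against 6.99, 7.01, 7.33 and 7.18 in no sponge DRG, and the groups did not overlap. It was 1.53-fold higher with the vehicle-soaked sponge (log2 difference 0.61 ± 0.135 SE, adjusted p = 0.00356 in limma) and was called without any 1 of the 8 arrays (adjusted p of at most 0.0166). rhBMP-2/ACS arrays, at 7.69, 7.38, 7.70 and 7.53, also lay above all no sponge arrays (log2 difference 0.45, adjusted p = 0.0604).

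Sema4c, a transmembrane semaphorin that binds plexin B2, was higher in the same comparison. It had 6.92, 7.22, 7.24 and 7.08 in vehicle/ACS DRG, against 6.39, 6.73, 6.76 and 6.73 in no sponge DRG, without overlap (log2 difference 0.46 ± 0.138 SE, adjusted p = 0.0298 in limma). The call was lost without vehicle/ACS replicates 2 or 3 (adjusted p = 0.0888 and 0.0916) or no sponge replicate 1 (adjusted p = 0.118).

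Sema6c, a further transmembrane semaphorin, had 5.73, 6.21, 6.34 and 6.31 in vehicle/ACS DRG, against 5.74, 5.51, 5.75 and 5.49 in no sponge DRG. It was 1.44-fold higher (log2 difference 0.53 ± 0.153 SE, adjusted p = 0.0254 in limma), although vehicle/ACS replicate 1 lay within the no sponge range. The call was lost without vehicle/ACS replicates 2, 3 or 4 or no sponge replicates 2 or 4, at adjusted p of 0.0677 to 0.0910.

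Ephb2 had 5.21, 5.53, 5.57 and 4.93 in vehicle/ACS DRG, detected on 3 of 4, against 5.0, 4.99, 4.90 and 4.65 in no sponge DRG, detected on 2 of 4. The log2 difference was 0.42 ± 0.135 (SE, adjusted p = 0.0417 in limma), and the groups overlapped. Efna5 was lower, with 5.35, 5.20, 5.17 and 4.68 in vehicle/ACS DRG, against 5.79, 5.52, 5.44 and 5.49 in no sponge DRG, without overlap (log2 difference -0.46 ± 0.149 SE, adjusted p = 0.0447 in limma). Leaving out 1 array ended the call of Ephb2 for 6 of the 8 arrays, up to an adjusted p of 0.161, and that of Efna5 for 7 of the 8, up to 0.173.

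Sema6b had 5.25, 5.48, 5.27 and 5.21 in vehicle/ACS DRG at 7 dps, against 4.55, 5.15, 5.30 and 5.07 in no sponge DRG. The groups overlapped and the difference of 0.28 was not called (adjusted p = 0.110), whereas without no sponge replicate 3 it was 0.38 and called (adjusted p = 0.0391).

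By arrays left out, 1 member, Plxnb2, was called at 7 dps without vehicle/ACS replicates 2 or 3, and 2 were called without no sponge replicates 1 (Plxnb2 and Sema6c), 2 or 4 (Plxnb2 and Sema4c). With arrays shifted to a common median, the split was 3 higher and 0 lower members.

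**Figure D3:**
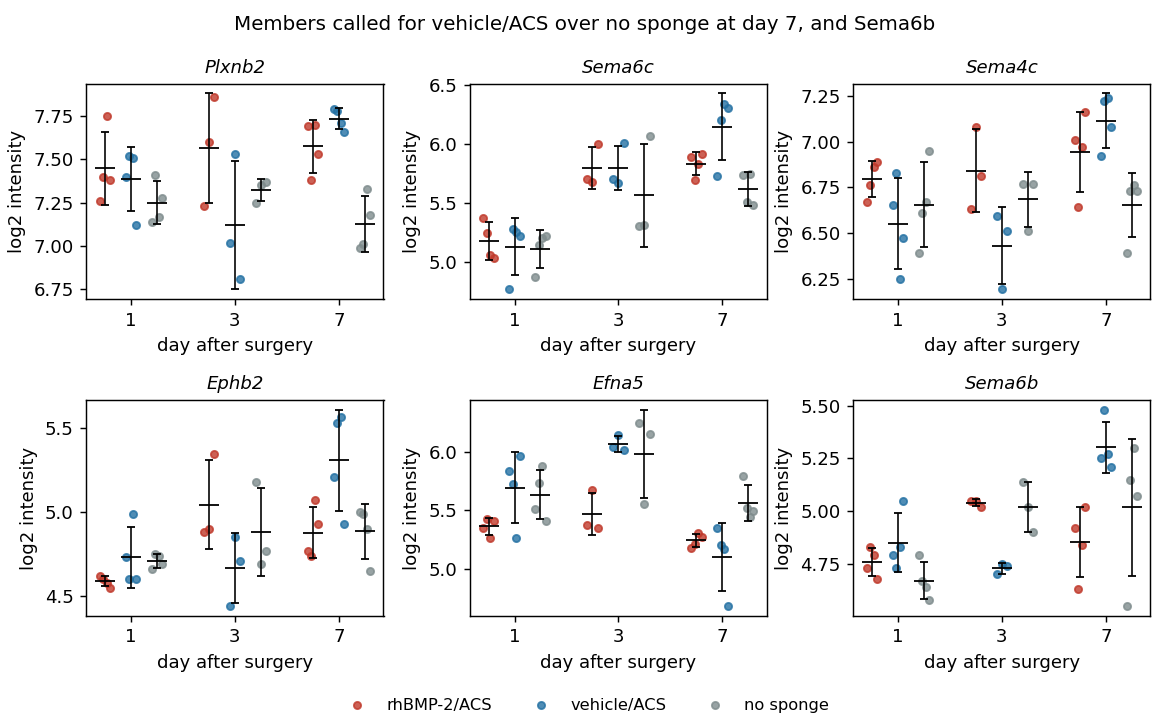
Log2 intensity (y axes) of the 5 members called for vehicle/ACS over no sponge at 7 dps, and of Sema6b, by day after surgery (x axes). Each point is 1 array in rhBMP-2/ACS (red), vehicle/ACS (blue) or no sponge (grey), black marks are group means and bars are SD. At day 7 the blue points of Plxnb2 and Sema4c lie above all grey points, and those of Efna5 lie below them.

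Markers of other cells also differed between vehicle/ACS and no sponge at 7 dps. Of 8 macrophage markers 6 were called higher and 0 lower, and of 8 fibroblast markers 7 were called higher and 0 lower, with median log2 differences of 1.15 and 1.05. The macrophage mean ranged from 7.54 to 7.91 in vehicle/ACS arrays and from 6.55 to 6.77 in no sponge arrays, and the fibroblast mean from 10.01 to 10.69 in vehicle/ACS and from 8.84 to 9.10 in no sponge. Of 11 sensory neuron markers 0 were called higher and 2 lower, with a mean of 11.45 to 11.52 in vehicle/ACS and 11.59 to 11.65 in no sponge. Of 5 satellite glia and Schwann cell markers 0 were called higher and 1 lower. Of 7 endothelial and 6 skeletal muscle markers 0 were called in either direction. Their part in the differences of Plxnb2, Sema4c, Sema6c, Ephb2 and Efna5 was not tested.

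The effect of vehicle/ACS over no sponge changed for 3 members between 3 and 7 dps (3.75% of all tested probes called, 2.86% higher and 0.89% lower). It rose for Plxnb2 by 0.81 ± 0.207 (SE, adjusted p = 0.0226 in limma) and for Efnb1 by 0.59 ± 0.159 (adjusted p = 0.0320), and fell by 0.63 on the log2 scale for Efna1 (adjusted p = 0.0276). Efna1 was detected on 0 of 3 no sponge arrays at 3 dps, so that its measured change gives no size, and neither day alone was called. In the same test 4 of 8 macrophage markers and 6 of 8 fibroblast markers were called higher and 0 lower, and their part was not tested. Without no sponge replicate 3 or without vehicle/ACS replicate 3 of 3 dps, 0 members were called for this change, without vehicle/ACS replicate 2 of 3 dps 1 was called, Plxnb2, and without vehicle/ACS replicate 4 of 7 dps 5 were, with Epha4 and Ephb2 added. Between 1 and 3 dps 0 members changed (0% of all tested probes), and 2 had an unadjusted p under 0.05 (8.55%).

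rhBMP-2/ACS was also compared with no sponge, using the same arrays. At 1 dps 0 members were called (0% of all tested probes), 2 had an unadjusted p under 0.05 (6.24%) and 2 did not overlap (4.19%). At 3 dps 0 members were called, against 7.55% of all tested probes, and 8 members had an unadjusted p under 0.05 (23.5% of all tested probes) and 5 did not overlap (22.3%), led by Ephb3 (at least 1.04-fold higher, adjusted p = 0.0552) and Efna5 (log2 difference -0.52, adjusted p = 0.0613). Without no sponge replicate 2 of 3 dps Efna5 was called (log2 difference -0.73, adjusted p = 0.0198), and without no sponge replicate 3 Ephb3 (adjusted p = 0.0490, no sponge not detected) and Plxna3 (-0.71, adjusted p = 0.0391) were. Without rhBMP-2/ACS replicate 1 of 3 dps Sema7a was called (-0.45, adjusted p = 0.0221). With all arrays of 3 dps, 7 of 8 macrophage, 3 of 8 fibroblast and 3 of 7 endothelial markers were called higher and 0 lower. Of 11 sensory neuron markers 2 and of 5 satellite glia and Schwann cell markers 1 were called lower and 0 higher, and of 6 skeletal muscle markers 0 were called.

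At 7 dps 1 member was called lower, against 1.04% of all tested probes called lower, 2.59% called higher and 3.63% called in either direction. An unadjusted p under 0.05 was reached by 8 members (18% of all tested probes), and 7 did not overlap (12.3%). It was Efna1, with 5.18, 5.10, 5.27 and 5.10 in rhBMP-2/ACS DRG, against 5.55, 5.65, 5.47 and 5.51 in no sponge DRG, detected on all 8 arrays and without overlap (log2 difference -0.38 ± 0.108 SE, adjusted p = 0.0414 in limma). vehicle/ACS arrays, at 5.27, 5.39, 5.27 and 5.26, overlapped those of rhBMP-2/ACS and lay below all no sponge arrays. The call was lost when any 1 of the 8 arrays was left out, with adjusted p of 0.0643 to 0.117. Other members passed without single arrays, namely Plxnb2 without rhBMP-2/ACS replicate 2 (0.51, adjusted p = 0.0459) and Efnb3 without no sponge replicate 3 (-0.49, adjusted p = 0.0467). With all arrays of 7 dps, 3 of 8 macrophage, 3 of 8 fibroblast and 1 of 6 skeletal muscle markers were called higher and 0 lower. Of 11 sensory neuron and of 5 satellite glia and Schwann cell markers 1 each was called lower and 0 higher. Of 7 endothelial markers 0 were called. Their part in the difference of Efna1 was not tested.

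More members were called between days than between treatments, as was the case for all tested probes, with the limit that day and hybridisation cannot be told apart. Each day comparison also averaged the arrays of all 3 treatments, whereas each treatment comparison used groups of 1 day. The day comparisons thus rested on more arrays, so that these counts do not compare the sizes of the differences. Over the mean of the 3 treatments, 27 of 35 members were called at 7 dps against 1 dps (77.1%), against 68.4% of all tested probes, 17 higher and 10 lower (36.1% and 32.4% of all tested probes). The arrays of these days did not overlap for 7 members (15% of all tested probes). At 3 dps against 1 dps 22 were called (12 higher and 10 lower, against 53.7%, 27.4% and 26.3% of all tested probes in either direction, higher and lower), and at 7 dps against 3 dps 18 were called (11 higher and 7 lower, against 58.7%, 33% and 25.7%). Arrays did not overlap for 3 members at 3 dps against 1 dps (8.59% of all tested probes) and for 1 member, Plxna2, at 7 dps against 3 dps (9.93%). Of the 35 members, Sema4a, Plxnb2 and Ephb1 passed in none of these 3 comparisons. Sema6b, Ephb2, Unc5b and the Ntn5 probe met the detection rule in groups of 7 dps alone, and Sema3c and Ephb3 at 1 dps alone. What these 6 members add to the counts is thus not independent of that rule. The direction from 1 to 7 dps was the same in all 3 treatments for 26 members, as for 73.6% of all tested probes. From 1 dps over 3 dps to 7 dps, the mean moved up at both steps for 13 members and down at both for 5. For these patterns the share over all tested probes was not computed.

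Among the 12 tested semaphorins, 7 were called higher and 3 lower at 7 dps against 1 dps, beside 36.1% and 32.4% of all tested probes. Sema4g, a transmembrane semaphorin, had a lowest, median and highest log2 intensity of 5.66, 6.21 and 6.49 at 1 dps, 5.74, 6.58 and 6.82 at 3 dps, and 6.74, 7.05 and 7.22 at 7 dps. It was 1.82-fold higher at 7 dps than at 1 dps (log2 difference 0.86 ± 0.0973 SE, adjusted p = 6.55e-09 in limma), and no array of 7 dps overlapped with those of 1 dps. The difference was 1.09 in rhBMP-2/ACS, 0.74 in vehicle/ACS and 0.75 in no sponge.

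Sema3f, a secreted repellent that signals through neuropilin-2, moved the other way. Its lowest, median and highest values were 7.64, 7.83 and 8.07 at 1 dps, 7.20, 7.53 and 7.70 at 3 dps, and 6.93, 7.08 and 7.34 at 7 dps (7 against 1 dps, log2 difference -0.72 ± 0.0619 SE, adjusted p = 2.45e-11 in limma). It fell at both steps in every treatment. Sema6c was higher by 0.72 at 7 dps against 1 dps, most of it by 3 dps (0.57), and Sema6d was lower by 0.46 at 7 dps against 3 dps (adjusted p = 3.34e-05).

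Of the 5 receptors for semaphorins, 2 were called higher and 1 lower at 7 dps against 1 dps, beside 36.1% and 32.4% of all tested probes. Plxna2, a plexin that pairs with neuropilins, had a lowest, median and highest of 7.71, 7.88 and 8.15 at 1 dps, 7.45, 7.58 and 7.87 at 3 dps, and 6.66, 7.26 and 7.37 at 7 dps. It was 1.7-fold lower at 7 dps than at 1 dps (log2 difference -0.77 ± 0.0711 SE, adjusted p = 1.18e-10 in limma), and the arrays did not overlap. Nrp1, co-receptor for Sema3a and for vascular endothelial growth factor, was lower by 0.40 at 3 dps against 1 dps (adjusted p = 0.000155) and differed by -0.07 at 7 dps against 1 dps (adjusted p = 0.458).

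Of the 4 ephrins 1 was called higher and 2 lower at 7 dps against 1 dps, and of the 7 Eph receptors 3 higher and 1 lower. The shares of all tested probes were 36.1% higher and 32.4% lower. Ephb6, a receptor without kinase activity, had a lowest, median and highest of 6.41, 6.83 and 7.18 at 1 dps, 6.54, 6.84 and 7.29 at 3 dps, and 7.10, 7.37 and 7.74 at 7 dps. Nearly all of its difference arose after 3 dps (0.54 at 7 against 3 dps, adjusted p = 1.29e-05 in limma, and 0.01 at 3 against 1 dps). Epha5, a receptor for A-class ephrins, was higher by 0.43 at 3 dps against 1 dps (adjusted p = 5.6e-06), and its ligand Efna5 was lower by 0.54 at 7 dps against 3 dps (adjusted p = 1.39e-05). Efnb1 was lower by 0.26 at 7 dps against 1 dps (adjusted p = 0.000400).

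Netrin family signal was sparse, and Dcc and Ntn3 were detected on no array. All 3 tested probes of the netrins and Unc5 receptors were called higher at 7 dps against 1 dps, beside 36.1% of all tested probes. Ntn5, which codes for a short secreted netrin, was detected by ILMN_2040726 on 0 of 12 arrays at 1 dps, 0 of 9 at 3 dps and 11 of 12 at 7 dps. Its lowest, median and highest values were 4.52, 4.57 and 4.66 at 1 dps, 4.54, 4.67 and 4.96 at 3 dps, and 4.83, 5.13 and 5.43 at 7 dps. It was at least 1.01-fold higher at 7 dps than at 1 dps (measured log2 difference 0.55 ± 0.0503 SE, adjusted p = 9.13e-11 in limma). The groups of these days did not overlap, while the bound leaves little room for a size. Unc5b was detected on 4 of 12, 5 of 9 and 11 of 12 arrays at 1, 3 and 7 dps.

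Of the Slits, Slit1 had a lowest, median and highest of 9.24, 9.42 and 9.61 at 1 dps, 8.49, 8.62 and 9.11 at 3 dps, and 8.41, 8.93 and 9.12 at 7 dps. It was 1.67-fold lower at 3 dps than at 1 dps (log2 difference -0.74 ± 0.0685 SE, adjusted p = 2.15e-10 in limma) without overlap, by 0.86 in rhBMP-2/ACS, 0.82 in vehicle/ACS and 0.54 in no sponge. Slit3 had 4.79, 5.11 and 5.92 at 3 dps and 5.58, 5.78 and 6.06 at 7 dps, and was higher by 0.62 at 7 dps against 3 dps (adjusted p = 2.06e-06). Their receptor Robo2 had 5.90, 6.08 and 6.31 at 1 dps and 5.19, 5.64 and 5.88 at 3 dps, lower at 3 dps by 0.47 (adjusted p = 2.64e-05) with no overlap. Slit1 and Robo2 were thus both at their lowest mean at 3 dps, the day of the brightest raw arrays. At 3 dps against 1 dps, 0 of 11 sensory neuron markers were called higher and 5 lower, 2 of 7 endothelial markers higher and 4 lower, 3 of 5 satellite glia and Schwann cell markers higher and 1 lower, 1 of 8 macrophage markers higher and 2 lower, and 2 of 8 fibroblast markers higher and 2 lower. At 7 dps against 1 dps the counts were 3 higher and 4 lower for neurons, 2 and 1 for endothelium, 2 and 1 for glia, 2 and 1 for macrophages, and 3 and 0 for fibroblasts. Their part in the differences between days was not tested.

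**Figure D4:**
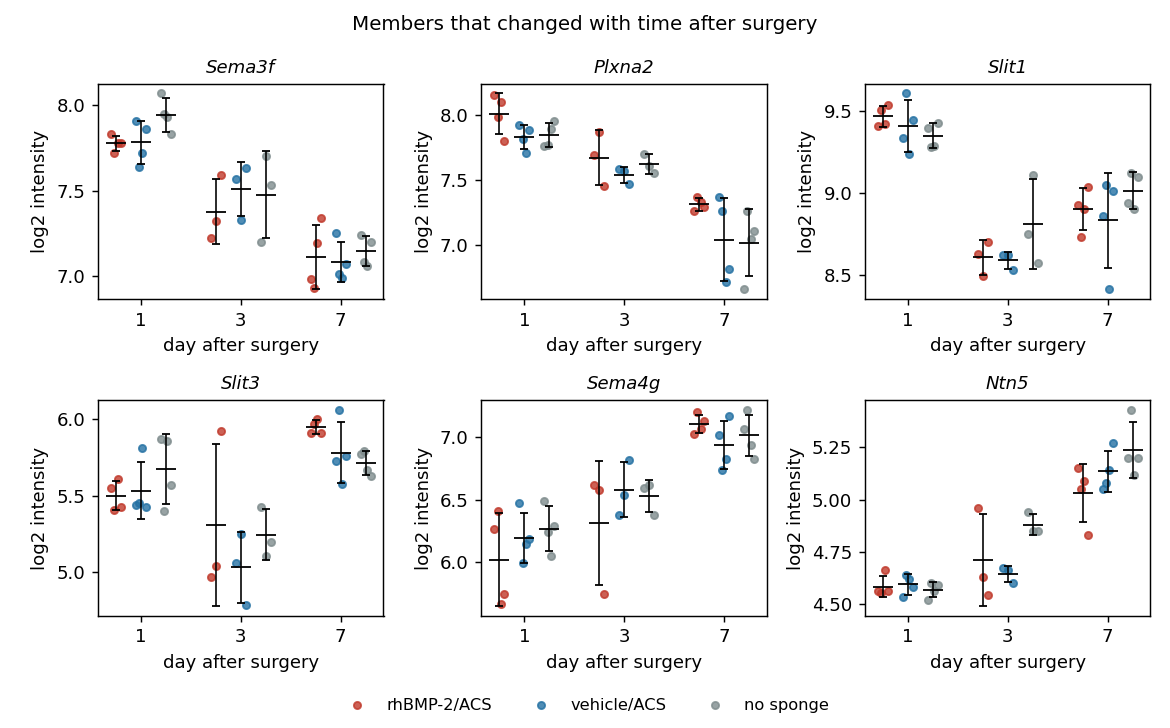
Log2 intensity (y axes) of 6 members that changed with time, by day after surgery (x axes). Each point is 1 array in rhBMP-2/ACS (red), vehicle/ACS (blue) or no sponge (grey), black marks are group means and bars are SD. The means of Sema3f and Plxna2 fall at both steps and those of Sema4g rise at both, Slit1 and Slit3 have their lowest means at day 3, and the Ntn5 probe is detected at day 7 alone.

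Further members crossed the detection limit between groups. Sema3c, a secreted semaphorin, was detected on 3 of 4 arrays in each group at 1 dps, and at 7 dps on 0 of 4 rhBMP-2/ACS, 1 of 4 vehicle/ACS and 2 of 4 no sponge arrays. Epha2, a receptor for A-class ephrins, was detected on 3 of 3 rhBMP-2/ACS arrays, 1 of 3 vehicle/ACS and 1 of 3 no sponge arrays at 3 dps, and at 7 dps on 1 of 4, 3 of 4 and 1 of 4. Ephb2 and Sema6b were detected on 0 arrays at 1 dps. Neither Sema3c nor Epha2 was called between treatments on any day.

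Treatments were also compared within days in other genes of guidance signalling, taken from lists of the pathway, and comparisons with called genes are given. Of 21 tested genes for other guidance cues and receptors, 0 were called higher and 2 lower in rhBMP-2/ACS than in vehicle/ACS at 3 dps, beside the 5.98% higher and 4.56% lower of all tested probes. The lower genes were Omg, a myelin protein that inhibits axon growth (log2 difference -0.81 ± 0.171 SE, adjusted p = 0.00309 in limma), and Ntng1, a membrane-anchored netrin relative (-0.42, adjusted p = 0.0346). In vehicle/ACS against no sponge at 7 dps, 2 of the 21 were called higher and 4 lower, beside 6.22% higher and 3.96% lower of all tested probes. Higher were Flrt3, a transmembrane ligand of Unc5 receptors (1.23 ± 0.218 SE, adjusted p = 0.000316 in limma), and Itgb1 (0.38, adjusted p = 0.00326). Lower were Dscam (-0.60), Ntng1 (-0.39), Lrrc4c, a receptor for Ntng1 (-0.39) and Omg (-0.46). In rhBMP-2/ACS against no sponge at 3 dps, 0 were called higher and 3 lower, beside 7.55% of all tested probes in either direction. These were Omg (-0.68), Ptprs (-0.56) and Cntn2 (-0.54). At 7 dps 1 was called higher and 0 lower, beside 2.59% and 1.04%, namely Flrt3 (1.18, adjusted p = 0.00161 in limma).

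Of 37 tested genes for intracellular transducers, 3 were called higher and 1 lower in rhBMP-2/ACS than in vehicle/ACS at 3 dps, shares near the 5.98% higher and 4.56% lower of all tested probes. Higher were the small GTPases Rras (0.58, adjusted p = 0.0193 in limma), Rhoa (0.37, adjusted p = 0.0482) and Cdc42 (0.23, adjusted p = 0.0254), and lower was Limk1, a kinase that acts on cofilin (-0.30, adjusted p = 0.0217). In vehicle/ACS against no sponge at 7 dps, 4 were called higher (Rras, Ptpn11, Rac1 and Cdc42) and 1 lower (Limk1), beside 6.22% higher and 3.96% lower of all tested probes. These comparisons share vehicle/ACS as a treatment but not its arrays, since those of 3 and 7 dps are different. In rhBMP-2/ACS against no sponge at 3 dps, which reuses arrays, 2 were called higher and 2 lower, beside 7.55% of all tested probes in either direction. Higher were Rras (0.76, adjusted p = 0.00415 in limma) and Rac1 (0.30), and lower were Tiam1 (-0.34) and Cdk5 (-0.30). At 7 dps 0 were called, beside 3.63%.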

How the data were processed

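DRG RNA was hybridised by the authors to Illumina Rat Ref-12 BeadChips, whereas the labels' protocol text names a mouse chip. The deposited intensity of each probe is a mean bead intensity without background subtraction, beside the deposited detection p-value of that probe. A second deposited table holds the authors' background-subtracted, quantile-normalized intensity from GenomeStudio, used as an alternative. Its values were set to at least 1 and put on a log2 scale here.

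Intensities were corrected (normexp with negative controls inferred from detection p-values, offset 16), quantile-normalized and put on a log2 scale in limma 3.58.1 (R 4.3.3). The 12029 of 22523 probes that some group had detected (p under 0.05) on 75% or more of its arrays were fitted over 9 groups with eBayes (trend), in 16 comparisons. Recovery was tested on simulated data. Of all probes, 13793 carried a gene symbol. Values named are up to 6 called members of largest change per comparison, the 2 of lowest p where none passed, Sema6b, members that crossed the detection limit, and the member of lowest p over time per family. Some further members are named that were picked after their values were seen. Members and lists were chosen with earlier results of these data known. Alternatives were the authors' values, no or a stricter detection filter, common medians, offset 50, array weights, the compared groups alone, a replicate block, the study's thresholds, and leaving out each array. Figures were drawn with Python 3.11.15 and matplotlib 3.10.9. The number of arrays limits the precision.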

Additional observations from a re-analysis of the deposited data

Results flagged for a closer look

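Of 150 groups of 4 arrays, over 25 named members, 9 held an array far from the other 3 by Dixon's test, which chance does in about 5% of groups. Low arrays were Ephb1 in rhBMP-2/ACS replicate 4 at 1 dps (7.46, others 7.86 to 7.87), Epha2 in vehicle/ACS replicate 4 at 7 dps (4.74, others 5.11 to 5.18), Robo2 in vehicle/ACS replicate 4 at 1 dps (5.92, others 6.25 to 6.31), Sema6c in vehicle/ACS replicate 1 at 1 dps (4.77, others 5.22 to 5.28) and Sema4c in no sponge replicate 1 at 7 dps (6.39, others 6.73 to 6.76). High arrays were Ntn5 (ILMN_2040726) in rhBMP-2/ACS replicate 3 at 1 dps (4.66, others 4.55 to 4.56), Efna1 in vehicle/ACS replicate 2 at 7 dps (5.39, others 5.26 to 5.27), Slit3 in vehicle/ACS replicate 3 at 1 dps (5.81, others 5.43 to 5.45) and Unc5c in no sponge replicate 2 at 7 dps (7.35, others 6.80 to 6.86).

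Effects that differed between days by limma's test of the difference, on the log2 scale, were 9. For rhBMP-2/ACS over vehicle/ACS, Efnb1 changed by 0.84 between 1 and 3 dps and by -0.69 between 3 and 7 dps. Between 3 and 7 dps Sema6b changed by -0.76, Ephb2 by -0.80, Ephb3 by -0.54 and Efna5 by 0.74. For vehicle/ACS over no sponge between 3 and 7 dps, Plxnb2 changed by 0.81, Efna1 by -0.63 and Efnb1 by 0.59. The values of Sema6b, Ephb2, Ephb3 and Efna1 are measured values set against a group with no array detected, and give no size.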

How the results depend on the processing

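In rhBMP-2/ACS over vehicle/ACS at 3 dps, 6 members were called, against 2 with common medians, 2 with array weights, 4 with the replicate block, 0 with the compared groups alone (Efnb1 adjusted p = 0.0588, Ephb3 0.0886) and 0 at the study's fold and unadjusted p thresholds. In vehicle/ACS over no sponge at 7 dps, 5 were called, against 3 with the authors' values, 2 without a detection filter, 3 with common medians, 3 with the replicate block and 0 at the study's thresholds. In rhBMP-2/ACS over no sponge, 0 were called at 3 dps, against 1 with common medians (Ephb3) and 1 with offset 50 (Efna5). At 7 dps 1 was called (Efna1, lower), against 0 with the authors' values, without a detection filter, with the block and at the study's thresholds, 2 with array weights (Plxnb2 and Efna1), and Plxnb2 alone, higher, with common medians or the compared groups alone. Over time, the study's thresholds called 1 in place of 22 members (3 against 1 dps), 0 in place of 18 (7 against 3 dps) and 2 in place of 27 (7 against 1 dps).

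For the change of the rhBMP-2/ACS effect over vehicle/ACS, 1 member was called between 1 and 3 dps, against 0 with the compared groups alone. Between 3 and 7 dps 5 were called, against 1 with the authors' values, 3 without a detection filter, 2 with the stricter filter, 2 with the compared groups alone, 3 with the block and 3 at the study's thresholds, and 0 higher and 4 lower with common medians. For vehicle/ACS over no sponge between 3 and 7 dps, 3 were called, against 1 at the study's thresholds, and 3 higher and 0 lower with common medians. In that change common medians moved the median of all tested probes from -0.03 to 0.10.

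Leaving out 1 array gave 2 to 6 members for rhBMP-2/ACS over vehicle/ACS at 3 dps, 1 to 5 for vehicle/ACS over no sponge at 7 dps, and 0 to 2 at 3 dps and 0 to 1 at 7 dps for rhBMP-2/ACS over no sponge. Over time it gave 19 to 25, 16 to 20 and 26 to 27 (3 against 1, 7 against 3 and 7 against 1 dps). For the changes of effect it gave 0 to 1 and 1 to 7 for rhBMP-2/ACS over vehicle/ACS, and 0 to 5 for vehicle/ACS over no sponge between 3 and 7 dps. Sema6b in rhBMP-2/ACS over no sponge at 3 dps was 0.02 and changed sign without no sponge replicate 3, with -0.04 to 0.08 over the arrays left out and no call in any. Of 816 values of named members with 1 array left out, 728 kept direction and side of the threshold, 84 lost the call and 3 gained it. Under the other alternatives 412 of 468 kept both, 54 lost the call and 2 gained it. These values do not include the study's thresholds, under which most calls between days were lost, as given above. Among the values counted here every call between days was kept. The lost calls among them were thus all between treatments or for changes of an effect. Members not called at the outset had no call to lose, so that the pooled counts understate how often such calls were lost.

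Whether replicate numbers pair the arrays was not settled. Over 33 pairs of arrays with the same number, correlations of deviations were -0.18 to 0.24, and 6 were over 0.1. At 3 dps they were -0.04 to 0.2. Pairs with unlike numbers were not computed for comparison. With the block, calls were lost for Efna1 and Sema7a in rhBMP-2/ACS over vehicle/ACS at 3 dps (adjusted p = 0.0503 and 0.0540), Ephb2 and Efna5 in vehicle/ACS over no sponge at 7 dps (0.0510 and 0.0714), Efna1 in rhBMP-2/ACS over no sponge at 7 dps (0.0684), Ephb3 and Efna5 in the change of the rhBMP-2/ACS effect (0.0566 and 0.0722) and Efnb1 in that of the vehicle/ACS effect (0.0649). Where no cause is plain from how the alternative was built, the cause was not tested. Signal over background limits the members at or near the detection limit, among them Ephb3, Ephb2, Sema6b and Ntn5.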
